A study of Mus musculus with 18 samples.

Results

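Non-mutant cells of DKO* ear skin were compared with control cells in hair follicle stem cells (HF-SCs) of the bulge and in basal keratinocytes (b-KCs), and the question was whether the difference from control was the same in both compartments. The comparison used 12 of the 18 RNA-seq libraries of the series, which are 3 libraries in each of 4 groups. For each gene it was the difference between non-mutant Tomato-positive (Tom) and control (Co) HF-SCs minus the same difference in b-KCs, called the interaction below, on the scale log2(FPKM + 1). FPKM is the number of fragments mapped to a gene, scaled to its transcript length and to the mapped reads of the library. A positive interaction means a difference from control that was more positive, or less negative, in HF-SCs than in b-KCs. The other 6 libraries hold the mutant GFP-positive cells of the same DKO* mice and are given beside results only.

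DKO* mice are homozygous for floxed alleles of both genes (JunB f/f, c-Jun f/f) and carry the K5-Cre-ERT transgene, in which the promoter of keratin 5 drives a tamoxifen-activated Cre recombinase in basal epidermal cells, and the mT/mG reporter. Where Cre acts, a cell loses both Jun genes and switches from Tomato to GFP, so a Tom cell is a cell in which the reporter has not recombined, and any cell type of the skin in which Cre does not act is Tomato-positive. Control mice also carry K5-Cre-ERT and mT/mG, and are wild-type or heterozygous for the floxed alleles. All mice were 8 weeks old, of mixed background, and received 4 daily injections of 2 mg tamoxifen, and DKO* cells were taken at day 7. HF-SCs were sorted as CD45-negative, CD49f-high, CD34-positive cells and b-KCs as CD45-negative, CD49f-high, CD34-negative cells from trypsin-separated ear epidermis. The sources used here state no fluorescence gate for the control libraries, and CD34 is also carried by endothelial cells. CD31, an endothelial surface marker, is not among the sort markers in the sample labels, while the study's methods name an antibody against it among the stains used depending on the experiment, so whether CD31-positive cells were gated out of these libraries is not given in the sources used here. Control mice were 810, 825 and 828 and DKO* mice were 814, 815 and 817, and values below follow these orders. Each control mouse gave 1 library of each compartment, and each DKO* mouse 1 Tom and 1 GFP library of each.

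The bulge is the part of the hair follicle that holds slow-cycling stem cells, and basal keratinocytes line the epidermis between the follicles and feed its stratified layers. c-Jun and JunB are subunits of the AP-1 transcription factor, and their loss from basal epidermal cells produces a psoriasis-like skin disease in mice. TSLP and IL-33 are alarmins, cytokines that epithelial cells release under stress and that act on immune cells and on other epithelial cells. IL-19 belongs to the IL-20 family of cytokines, which signal to keratinocytes through STAT3.

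Read totals are not part of the FPKM values, but low values of genes with 1 transcript fell on steps that imply 16502000 to 26266000 reads in the 12 libraries, so that 3 reads on a transcript of 1 kb are worth 0.114 to 0.182 FPKM. Jun, at 836, 1028 and 1086 FPKM in control HF-SCs, was at 308, 332 and 614 FPKM in Tom HF-SCs and at 69.6, 88.4 and 30.4 FPKM in GFP HF-SCs, and the b-KC libraries had the same order (876 to 1000 in Co, 163 to 400.4 in Tom, 29.6 to 65.4 in GFP). Neither Jun (interaction 0.65 ± 0.56 SE, limma adjusted p = 0.5) nor Junb (0.71 ± 0.42 SE, limma adjusted p = 0.294) passed the test of the interaction. Cd34, the sort marker, was at 639.8 to 889 FPKM in control HF-SCs, 259.6 to 319 in Tom HF-SCs and 0.341 to 2.53 in the b-KC libraries. Krt5, a keratin of basal epidermal cells, was at 2652 to 7318 FPKM in the 12 libraries. Krt14 is listed at 0 in the Tom b-KC libraries of mice 814 and 817 and Krt15 in the control HF-SC library of mouse 828, and since these keratins are abundant in the other libraries of these groups, neither is interpreted.

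Of 12751 genes tested, 252 genes (1.98%) were called different between the compartments, at a limma adjusted p under 0.01 and an absolute interaction of at least 2. In 223 of them (1.75%) the interaction was positive and in 29 (0.227%) it was negative. The median interaction over all genes tested was -0.02. The within-mouse difference between HF-SCs and b-KCs did not overlap between the 3 DKO* and the 3 control mice in any of the 252 genes, against 38.5% of all genes tested. The 252 genes were chosen on this same difference, so their count is no separate support. Behind this interaction, Tom HF-SCs differed from control in 521 genes (4.09%), with 460 higher (3.61%) and 61 lower (0.478%), and Tom b-KCs in 351 genes (2.75%), with 159 higher (1.25%) and 192 lower (1.51%). These are bulk libraries, in which fewer cells of a type and less RNA per cell cannot be told apart. Below, a gene is said to rise or fall where its adjusted p was under 0.01, and to be called where its log2 difference was also at least 2 in size.

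**Figure D1:**
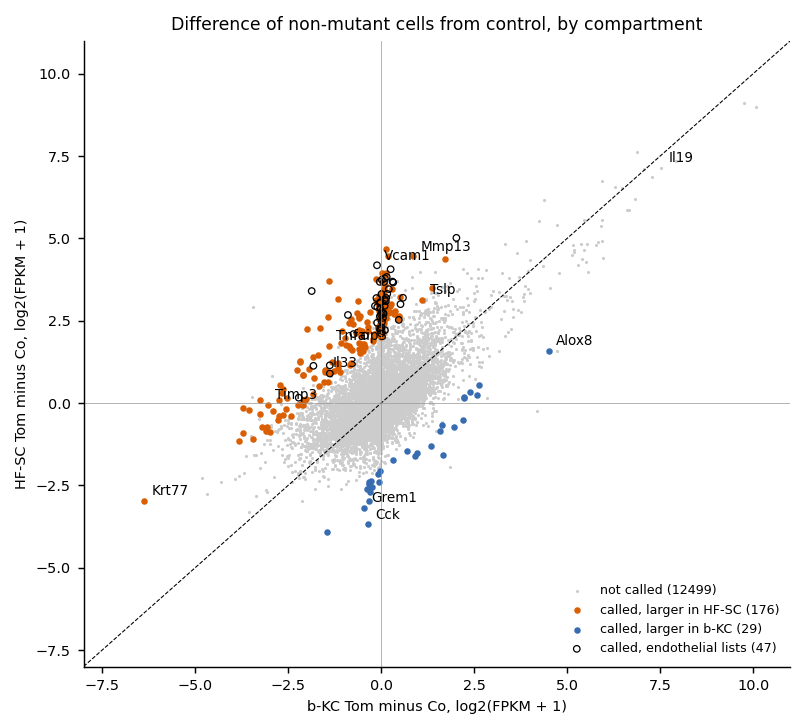
Each point is 1 of 12751 genes, placed by its difference between Tom and control b-KCs (x axis) and between Tom and control HF-SCs (y axis), both on the log2(FPKM + 1) scale, and the dashed line marks equal differences. Called genes lie off the line, 223 above it and 29 below it, with the 47 endothelial-list genes as open circles, most of them near 0 on the x axis, while Il19 lies close to the line and was not called.

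The positive interactions fell into groups by where the difference lay. Among the 223 genes, 47 belong to 3 lists of endothelial genes, 1 is the fibroblast-list gene Fbn1, which encodes fibrillin, and 175 lie outside the lists of other cell types. Of these 175, 102 were called higher in Tom HF-SCs and not called in b-KCs, 35 were called lower in Tom b-KCs and not called in HF-SCs, 1 was called lower in both, and 37 were called in neither compartment alone. All 29 genes with a negative interaction lie outside the lists, and 13 of them were called lower in Tom HF-SCs, 7 called higher in Tom b-KCs and 9 called in neither.

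Most endothelial genes were higher in Tom than in control HF-SCs and low in b-KCs, with 20 of 88 at a mean of at least 1 FPKM in control b-KCs. They are set apart here because the lists were made to mark a cell type other than the keratinocytes that were sorted for. Of 88 listed genes in the table, 75 were tested, 47 were called with a positive interaction (1.75% of all genes) and 0 with a negative one, and their median interaction was 2.59. Some listed genes were also expressed in b-KCs. Of the 47, 1 was at 125 FPKM in control b-KCs and 10.9 in control HF-SCs, and was called lower in b-KCs alone. Another 3, called in neither compartment, had a median level of 12.2 FPKM in control b-KCs. The list of capillary, artery and other endothelial genes summed to 348 to 365 FPKM in control b-KCs and 427 to 481 in control HF-SCs. Pecam1, the CD31 adhesion molecule of endothelial cells, was at 10.6, 12.9 and 8.62 FPKM in control HF-SCs, 209, 234 and 66.3 in Tom HF-SCs, 3.57, 4.52 and 0.547 in GFP HF-SCs, and at most 0.881 in each b-KC library (interaction 3.38 ± 0.63 SE, limma adjusted p = 0.00172). The Tom HF-SC libraries stood above the control libraries without overlap, and mouse 817 was the lowest of them. Sele, the E-selectin that captures leukocytes on activated venules, was at 20.8, 21.9 and 12.2 FPKM in control HF-SCs and 307, 428 and 142 FPKM in Tom HF-SCs, and did not exceed 0.26 FPKM in any b-KC library (interaction 3.68 ± 0.64 SE, limma adjusted p = 9.99e-04). Vcam1, another leukocyte adhesion molecule, rose from 1.39 to 2.06 FPKM in control HF-SCs to 76.1, 91.7 and 14.8 FPKM in Tom HF-SCs (interaction 4.30 ± 0.63 SE, limma adjusted p = 3.14e-04). The other genes named here by rule were Tm4sf1, a tetraspanin-like membrane protein, with the largest interaction of the endothelial lists at 5.27, Selp (P-selectin, 3.81), Car4 (carbonic anhydrase 4, 3.73), the water channel Aqp1 (3.72), the chemokine-scavenging receptor Ackr1 (3.69) and the TGF-beta co-receptor Eng (3.60). The Aqp1 and Ackr1 calls were lost with a pseudocount of 0.1, with the endothelial covariate and without any single mouse other than 817, and the Selp, Sele and Car4 calls were lost in 3 or 4 of the 14 alternatives. Cdh5, Kdr and Nos3, which encode VE-cadherin, a VEGF receptor and endothelial nitric oxide synthase, had interactions of 3.03, 2.86 and 2.97.

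The summed FPKM of 16 general endothelial genes was 91.7, 103 and 65.1 in control HF-SCs, 1770, 1696 and 529 in Tom HF-SCs and 37.4, 48.9 and 10.7 in GFP HF-SCs. It was 2.25 to 3.77 in control b-KCs and 17.1, 19.4 and 6.96 in Tom b-KCs, where Cdh5, Cldn5 and Robo4 are listed at 0 in the library of mouse 817. All 16 genes were called higher in Tom HF-SCs, against 3.61% of all genes tested, and 11 of 16 had a called interaction. Taken as a mean log2 level, the difference between HF-SCs and b-KCs was 5.15, 5.06 and 3.79 in the DKO* mice and 1.96, 2.05 and 1.68 in the control mice, and the 2.77 between the means of these gave p = 0.1 (exact permutation test over mice, two-sided), which is the lowest value 3 mice against 3 can reach. Of the 88 genes, 60 had a mean of at least 1 FPKM in control HF-SCs, 82 in Tom HF-SCs and 23 in Tom b-KCs. By the same measure and test, fibroblast genes gave 0.25 (exact p = 0.6), leukocyte genes -0.06 (exact p = 0.7), melanocyte and Schwann cell genes 0.06 (exact p = 0.9), pericyte and smooth muscle genes 0.66 and lymphatic endothelial genes 1.02 (exact p = 0.1 for both). Of 11 tested leukocyte genes, 0 had a called interaction, against 1.98% of all genes. The other two endothelial lists gave 2.55 and 2.04 and genes of sorting stress 0.57 (exact p = 0.1 for each). Interfollicular basal genes gave 1.26 (exact p = 0.1) with the zeros of Krt14 and 0.44 (exact p = 0.1) without Krt14, and bulge genes -0.15 (exact p = 0.6) with the zero of Krt15 and -0.46 (exact p = 0.1) without Krt15. Leaving out these 2 genes was chosen after the data were seen. The summed leukocyte list was 15.4 to 23 FPKM in control and 176 to 370 FPKM in Tom HF-SCs, and 10.2 to 15.4 FPKM in control and 307 to 1369 FPKM in Tom b-KCs.

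**Figure D2:**
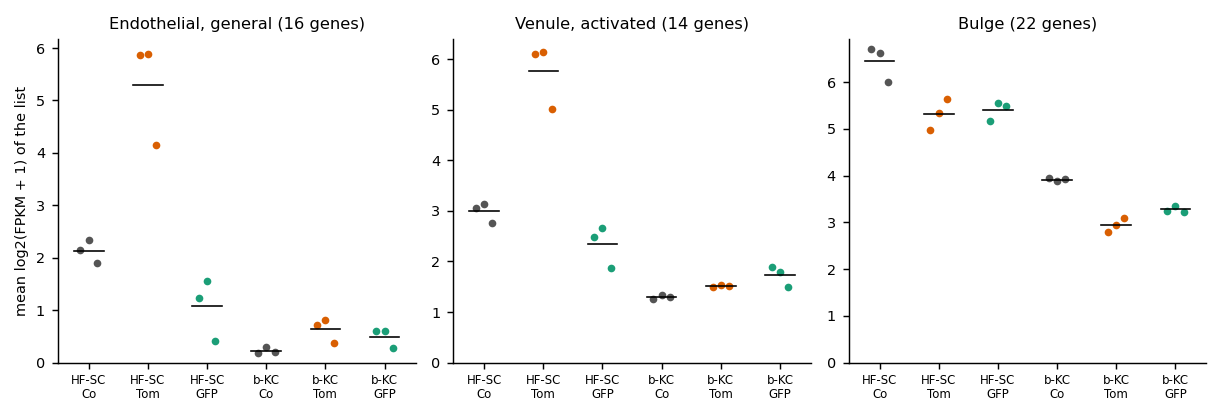
Mean log2(FPKM + 1) of 3 gene lists (y axis) in each library of the 6 groups (x axis), with 1 point per mouse and a bar at the mean of 3 mice. The general endothelial and activated venule lists are highest in the 3 Tom HF-SC libraries, the lowest of which is mouse 817, and lie low in all b-KC libraries, while the bulge list is lower in Tom and GFP than in control cells of both compartments, with Krt15 of control mouse 828 listed at 0.

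The levels in the GFP fraction of the same mice are given as a description only, since the genes were chosen by their Tom values and the limit of 4 times was set after the values were seen. Of the 102 outside genes called higher in Tom HF-SCs, 93 (91.2%) had a mean in Tom HF-SCs at least 4 times that in GFP HF-SCs, as had 42 of the 47 endothelial genes (89.4%), 15 of the 37 outside genes called in neither compartment (40.5%), 2 of the 35 called lower in b-KCs (5.71%), 0 of the 29 with a negative interaction and 410 of all 12751 genes (3.22%). The median over the 102 genes of their mean level was 1.37 FPKM in control, 15.8 in Tom and 0.627 in GFP HF-SCs, and 0.148, 0.161 and 0.175 FPKM in the matching b-KC groups. In 9 of the 102, Tom HF-SCs were less than 4 times the GFP level. These 9 are Tslp, Mmp3, Mmp13, Ccl20, Cxcl1, Ly6a, Sema3f, Abcc4 and the actin-bundling gene Lcp1. With the mean level of the 16 general endothelial genes as a covariate, 256 genes were called, 165 with a positive and 91 with a negative interaction. That mean level was 4.16 to 5.88 in Tom HF-SCs and at most 2.34 in any other library. The covariate thus nearly follows the Tom HF-SC group, and a call lost with it cannot separate endothelial RNA from another difference of that group. The 16 genes are also members of the endothelial lists, so the loss of endothelial calls was largely built in. Of the 252 genes, 38 were still called, of which 3 were endothelial, 26 were outside genes with a positive and 9 outside genes with a negative interaction. The part of endothelial RNA in the level of each outside gene was not tested.

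Tslp differed between the compartments. It was at 1.93, 1.65 and 1.81 FPKM in control HF-SCs and 27.8, 17.1 and 27.7 FPKM in Tom HF-SCs, a ratio of means of 13.5. In b-KCs it was at 7.09, 6.26 and 7.64 FPKM in control and 12.8, 13.6 and 24.2 FPKM in Tom cells, a ratio of 2.41. Control b-KCs thus had more Tslp than control HF-SCs, with a ratio of means of 3.9, while the Tom groups of the compartments overlapped. Tslp rose in both, by 3.14 ± 0.25 SE in HF-SCs (limma adjusted p = 1.46e-07) and by 1.11 ± 0.25 SE in b-KCs (limma adjusted p = 0.00214), and the interaction was 2.03 ± 0.35 SE (95% interval 1.28 to 2.78, limma adjusted p = 0.00101). The mutant cells of the same mice had more, with 133, 131 and 109 FPKM in GFP HF-SCs and 55.2, 52.9 and 30.1 FPKM in GFP b-KCs. The adjusted p was 0.0154 without mouse 814, with an interaction of 1.76, and 0.0101 without mouse 828, with 1.98, and it was 0.0193, with 2.29, with the endothelial covariate, so the call was lost in these 3 fits.

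Il19 rose in both compartments with no detectable difference between them. In HF-SCs it was at 0.286, 0 and 0.321 FPKM in control and 199, 104 and 228 FPKM in Tom cells. In b-KCs it was at 0.126, 0 and 0.766 FPKM in control and 238, 218 and 239.7 FPKM in Tom cells. The rise was 7.14 ± 0.33 SE in HF-SCs and 7.53 ± 0.33 SE in b-KCs on the log2(FPKM + 1) scale, and the interaction was -0.39 ± 0.46 SE with a 95% interval of -1.37 to 0.59 (limma adjusted p = 0.639). A difference of up to 1.37 in favour of b-KCs lies within that interval. GFP cells were at 216, 158 and 257 FPKM in HF-SCs and 321, 253 and 133 FPKM in b-KCs, which overlap the Tom levels. Il24, of the same family, had an interaction of 0.60 ± 0.75 SE (limma adjusted p = 0.659), and Il20 did not exceed 0.277 FPKM in the 12 libraries.

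Other members of the alarmin and IL-20 lists are given in each compartment. Il33 was at 12.0, 14.8 and 13.4 FPKM in control and 18.3, 24.4 and 40.5 FPKM in Tom HF-SCs, and at 92.5, 96.9 and 109.6 FPKM in control and 23.3, 28.3 and 62.0 FPKM in Tom b-KCs. Control b-KCs held 7.44 times the Il33 of control HF-SCs, and the Tom groups overlapped. Il33 fell in b-KCs, with a difference of -1.50 (limma adjusted p = 0.00202), its difference in HF-SCs was 0.93 (limma adjusted p = 0.0338), and the interaction was 2.43 ± 0.47 SE (limma adjusted p = 0.00227), with adjusted p from 0.0119 to 0.0361 without mouse 810, 815, 825 or 828. Il20rb and Il20ra, which encode the chains of the receptor for IL-19, fell in b-KCs, Il20rb from 205 to 216 FPKM in control to 65.2 to 79.7 FPKM in Tom and Il20ra from 36.5 to 48.0 to 17.8 to 22 FPKM. In HF-SCs Il20rb fell by 0.59 on the log2 scale, and Il20ra had a difference of 0.69 (limma adjusted p = 0.0398). Their interactions were 0.96 and 1.74 (limma adjusted p = 0.00235 and 0.00394). Stat5a and Stat5b, signal transducers downstream of the TSLP receptor, had interactions of 1.15 and 0.83 (limma adjusted p = 0.0013 and 0.00416). Stat5a rose by 0.71 in HF-SCs and had a difference of -0.45 in b-KCs (limma adjusted p = 0.0206), and Stat5b fell by 0.70 in b-KCs and had a difference of 0.13 in HF-SCs (limma adjusted p = 0.422), while Crlf2, the TSLP receptor chain, rose in both compartments with an interaction of 0.02. In all, 4 of 6 tested genes of the alarmin list and 2 of 9 of the IL-20 list passed an adjusted p under 0.01 with a positive interaction and 0 with a negative one, against 5.93% and 2.12% of all genes.

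**Figure D3:**
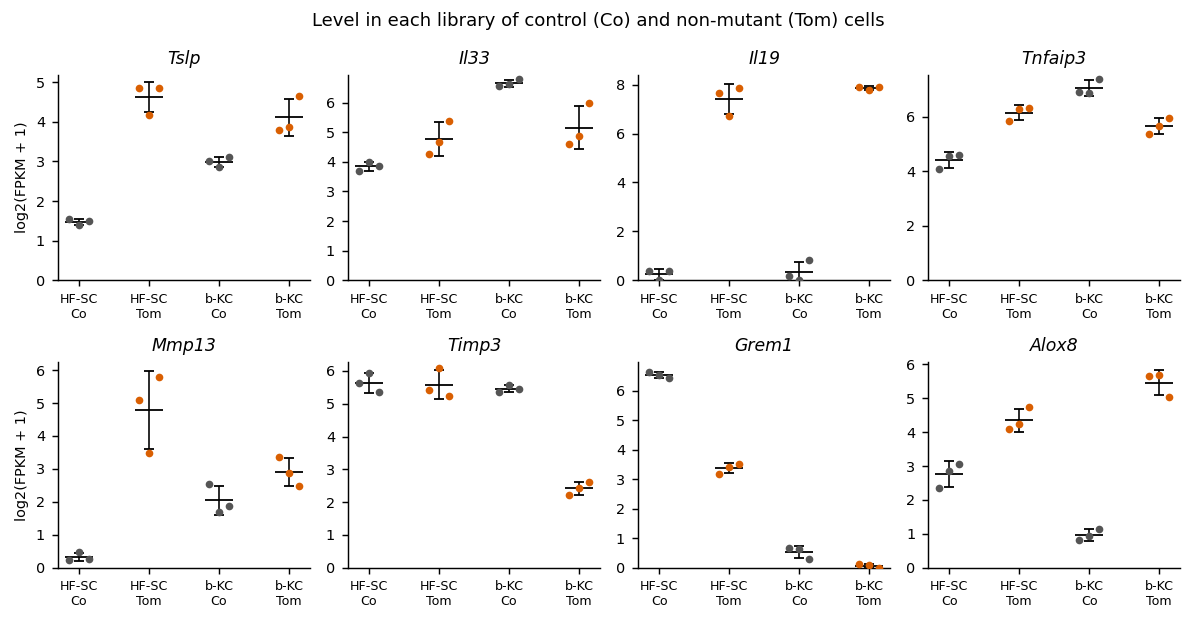
Log2(FPKM + 1) (y axis) of 8 genes in each library of control (Co) and Tom HF-SCs and b-KCs (x axis), with 1 point per mouse and a bar and whiskers at the mean and SD of 3 mice. Tslp and Mmp13 are further from control in HF-SCs, Timp3 is lowest in Tom b-KCs, Tnfaip3 is higher in Tom HF-SCs and lower in Tom b-KCs than in control, Il33 is low in Tom relative to control b-KCs, Il19 is high in both Tom groups, Alox8 is highest in Tom b-KCs, and Grem1 is high in control HF-SCs.

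In the IL-17, IL-23, IL-6 and TNF list 4 of 17 tested genes passed the adjusted p with a positive interaction, against 5.93% of all genes, and 0 with a negative one, against 2.12%, with a list median of 0.41. Tnfaip3, the A20 enzyme that restrains NF-kappaB signalling, was at 15.9, 22.7 and 22.9 FPKM in control and 55.9, 77.7 and 79.5 FPKM in Tom HF-SCs, and at 119.5, 116 and 166 FPKM in control and 40.4, 49.7 and 60.5 FPKM in Tom b-KCs. It rose by 1.74 ± 0.21 SE in HF-SCs and fell by 1.40 on the log2 scale in b-KCs, with an interaction of 3.14 ± 0.29 SE (limma adjusted p = 8.37e-06) that was called under all 14 alternatives. Il6st, the gp130 subunit shared by receptors of the IL-6 family, was at 20.5, 34.4 and 24.9 FPKM in control and 107, 148 and 75.5 FPKM in Tom HF-SCs, and at 24.9 to 32.8 FPKM in control and 9.59 to 19.3 FPKM in Tom b-KCs (interaction 2.96 ± 0.43 SE, limma adjusted p = 2.82e-04). Il6st rose in HF-SCs and its b-KC difference was -0.97 (limma adjusted p = 0.0159). Nfkbiz and Il6ra, an NF-kappaB cofactor and the IL-6 receptor chain, had interactions of 1.80 and 1.85 (limma adjusted p = 4.77e-05 and 0.00996). Il23a did not pass (interaction 0.31 ± 0.66 SE, limma adjusted p = 0.814), with 1.71 to 2.49 FPKM in Tom HF-SCs and 1.71 to 3.65 FPKM in Tom b-KCs. In the IL-1 and IL-36 list, 1 of 11 genes passed, against 5.93% of all genes, the decoy receptor Il1r2, which fell in b-KCs from 129, 134 and 163 FPKM to 52.8, 64.2 and 49.9 FPKM and was at 11.5 to 14.1 FPKM in control and 13.5 to 25 FPKM in Tom HF-SCs (interaction 1.94 ± 0.27 SE, limma adjusted p = 2.37e-04).

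Of 17 tested chemokine genes, 4 passed the adjusted p with a positive interaction, against 5.93% of all genes, and 0 with a negative one, against 2.12%, and 2 of the 4 were called. Ccl20, the ligand of CCR6, was at 9.38, 5.89 and 10.8 FPKM in control and 53.5, 74.0 and 57.6 FPKM in Tom HF-SCs. In b-KCs it was at 96.3, 72.7 and 96.3 FPKM in control and 75.5, 152 and 120.0 FPKM in Tom cells, which overlap. Its interaction was 2.38 ± 0.40 SE (limma adjusted p = 8.60e-04), and the Ccl20 call was lost in 1 of the 14 alternatives, at 1.98 (limma adjusted p = 0.0475). Cxcl1, a neutrophil attractant, was at 21.3, 8.63 and 11.2 FPKM in control and 416, 397 and 139 FPKM in Tom HF-SCs, and at 39.2, 22.4 and 37.1 FPKM in control and 74.3, 105 and 160.1 FPKM in Tom b-KCs, so it rose in both, with an interaction of 2.65 ± 0.58 SE (limma adjusted p = 0.00511, or 0.0176 with the mouse as a fixed block). Cxcl1 also lost its call without any single mouse other than 817, with adjusted p from 0.0103 to 0.0647. Cxcl2 and Cx3cl1 also passed, at 1.09 and 1.41, and the other 13 of 17 tested chemokine genes did not pass, among them Cxcl5 (-0.59 ± 1.11 SE, limma adjusted p = 0.787).

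Of 15 tested S100 and antimicrobial genes, 8 rose in HF-SCs, against 15.7% of all genes, and 5 in b-KCs, against 15.4%, and none had a called interaction. The summed leukocyte list was also higher in these libraries. It was 15.4 to 23 FPKM in control and 176 to 370 in Tom HF-SCs, and 10.2 to 15.4 in control and 307 to 1369 in Tom b-KCs. The part of leukocyte RNA in these levels was not tested. S100a8, a subunit of calprotectin, went from 30.2, 2.87 and 49.2 FPKM to 22949, 8262 and 4063 FPKM in HF-SCs and from 61.9, 3.27 and 62.0 FPKM to 44024, 34223 and 14189 FPKM in b-KCs. Its interaction was -1.11 ± 1.51 SE and that of S100a9 -0.66 ± 1.34 SE (limma adjusted p = 0.691 and 0.804). In the test of the interaction, 0 of the 15 passed the limma adjusted p under 0.01 against 5.93% of all genes with a positive and 2.12% with a negative sign, and 2 had an unadjusted p under 0.05, as had 3692 of all 12751 genes. The list's median interaction was 0.26. With SEs of this size, differences of 1 or 2 on the log2 scale were not detectable for these genes. Of 21 cornified envelope genes, 1 passed, the filaggrin relative Flg2 at 1.66, a share near the 5.93% of all genes, and the median was -0.13.

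Of 14 tested genes of matrix proteases and their inhibitors, 3 were called with a positive interaction, against 1.75% of all genes, and 5 passed the adjusted p alone, against 5.93%. None passed with a negative sign, and the list median was 1.36. Mmp13, collagenase-3, was at 0.182, 0.38 and 0.199 FPKM in control and 32.8, 10.3 and 54.3 FPKM in Tom HF-SCs, and at 4.82, 2.26 and 2.69 FPKM in control and 9.21, 6.35 and 4.63 FPKM in Tom b-KCs (interaction 3.60 ± 0.69 SE, limma adjusted p = 0.00212, and 0.0145 to 0.0205 without mouse 810, 814 or 828). The Mmp13 call was lost in 4 of the 14 alternatives and the Mmp3 call in 7. Mmp3, stromelysin-1, was at 9.13, 16.7 and 8.53 FPKM in control and 46.5, 32.8 and 243 FPKM in Tom HF-SCs, and at 86.5, 197 and 127 FPKM in control and 28.7, 32.6 and 116 FPKM in Tom b-KCs. Mmp3 differences were not equal between mice, with 817 highest in both compartments, and the interaction of 4.03 ± 0.90 SE (limma adjusted p = 0.00628) was called, of the fits without 1 mouse, only in that without mouse 817, with adjusted p from 0.0239 to 0.0394 in the other 5. In GFP HF-SCs the 2 proteases were at 79.0, 93.0 and 53.9 FPKM for Mmp13 and 65.0, 67.3 and 141 FPKM for Mmp3. Timp3, a matrix-bound inhibitor of metalloproteases, was at 48.2, 60.0 and 39.6 FPKM in control and 41.7, 66.9 and 36.7 FPKM in Tom HF-SCs, and at 40.2, 47.0 and 42.5 FPKM in control and 3.65, 4.38 and 5.17 FPKM in Tom b-KCs. Timp3 fell in b-KCs, with an HF-SC difference of -0.05 (limma adjusted p = 0.877), a b-KC difference of -3.04 and an interaction of 2.99 ± 0.35 SE (limma adjusted p = 4.98e-05). The Timp3 call was lost in 1 of the 14 alternatives (limma adjusted p = 0.0119).

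Il19 lies at chr1:132829235-132836650 and Tnfaip3 at chr10:18720716-18735463, both on the minus strand, and Timp3 at chr10:85763117-85812251 and Il33 at chr19:29999604-30035194, both on the plus strand, of build NCBIM37 (mm9), to which the reads were aligned.

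The 250 bases before the start of 4 genes with a called interaction are shown because JunB and c-Jun are AP-1 subunits and A20 is a target of NF-kappaB. They are RefSeq sequences of another build, GRCm38.p6, on the coding strand, in lower case, with capitals for 7-base AP-1 matches (TGANTCA), 9-base kappaB matches (GGGNNTTCC) and 6-base TATA box matches (TATAAA), each searched on both strands, so that a match on the other strand reads as its complement. All 4 printed windows hold an AP-1 or kappaB match, and they do not stand for the called genes as a set. The windows of other called genes named here, among them Cxcl1, Timp3, Il6st, Ptgs1, Hdc and Grem1, hold 0 matches to the 3 motifs. Mmp13 lies at chr9:7272264-7272513 on the plus strand, Mmp3 at chr9:7445572-7445821 on the plus strand, Tnfaip3 at chr10:19015411-19015660 on the minus strand and Ccl20 at chr1:83116516-83116765 on the plus strand. RefSeq gives Tnfaip3 another start, and the window before it, chr10:19011964-19012213 on the minus strand, holds 0 matches to the 3 motifs and is not printed.
Mmp13: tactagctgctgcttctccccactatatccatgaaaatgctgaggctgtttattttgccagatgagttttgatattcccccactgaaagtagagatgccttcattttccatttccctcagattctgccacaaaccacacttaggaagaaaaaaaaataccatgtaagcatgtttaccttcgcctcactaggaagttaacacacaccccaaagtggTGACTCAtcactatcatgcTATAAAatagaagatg
Mmp3: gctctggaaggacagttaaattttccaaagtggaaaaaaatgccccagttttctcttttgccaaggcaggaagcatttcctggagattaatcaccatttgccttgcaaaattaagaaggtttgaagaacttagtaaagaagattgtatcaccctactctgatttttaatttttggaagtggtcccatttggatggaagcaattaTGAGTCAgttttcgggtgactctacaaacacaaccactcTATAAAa
Tnfaip3: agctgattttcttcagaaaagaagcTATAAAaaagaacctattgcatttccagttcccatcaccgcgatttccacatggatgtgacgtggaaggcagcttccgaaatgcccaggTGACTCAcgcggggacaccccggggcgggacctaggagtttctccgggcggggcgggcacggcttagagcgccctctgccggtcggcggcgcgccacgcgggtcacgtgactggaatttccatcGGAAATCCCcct
Ccl20: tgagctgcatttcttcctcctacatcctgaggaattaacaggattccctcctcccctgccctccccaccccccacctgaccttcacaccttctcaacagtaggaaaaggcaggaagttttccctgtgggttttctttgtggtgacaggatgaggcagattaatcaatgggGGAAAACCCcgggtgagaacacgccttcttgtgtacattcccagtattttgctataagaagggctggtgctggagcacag

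The AP-1 match began 35 bases before the start of Mmp13, 46 before that of Mmp3 and 136 before that of Tnfaip3, and the kappaB match 12 bases before the start of Tnfaip3 and 80 before that of Ccl20. An AP-1 match was present in 11 of 117 outside genes with a positive interaction that have a promoter entry (9.4%), in 2 of 23 with a negative one (8.7%), in 5.8% of 9490 tested genes and in 7.82% of all 27025 promoter entries. A kappaB match was present in 13 of the 117 (11.1%), in 0 of the 23 and in 7.49% of tested genes. These matches describe the letters of the windows and are not binding sites measured here.

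The 15 outside genes with the largest positive interactions had values from 3.58 to 5.09. The largest was that of 8430408G22Rik, at 7.89, 9.43 and 9.85 FPKM in control and 207, 204 and 50.5 FPKM in Tom HF-SCs and at 18.7 to 32.4 FPKM in control and 5.34 to 11.9 FPKM in Tom b-KCs. Its call was lost in 1 of the 14 alternatives (limma adjusted p = 0.0202). Hdc, the enzyme that makes histamine, was at 0.854, 1.34 and 0.992 FPKM in control and 47.6, 51.7 and 36.0 FPKM in Tom HF-SCs, did not exceed 0.4 FPKM in the b-KC libraries of either group, and was at 1.4 to 2.63 FPKM in GFP HF-SCs (interaction 4.30 ± 0.24 SE, limma adjusted p = 8.65e-08). The Hdc and Olfml2a calls (interactions 4.30 and 3.72) held under all 14 alternatives, the endothelial covariate included. Eln (elastin, 3.92), Fbln5 (an elastic fibre protein, 3.81), Entpd1 (the CD39 ectonucleotidase, 3.92), Spns2 (a sphingosine-1-phosphate exporter, 4.31), Cfb (complement factor B, 3.78) and the actin-binding Cnn3 (3.92) were each at least 17.5 FPKM in the 3 Tom HF-SC libraries. In these 6 genes GFP HF-SCs did not exceed 12.2 FPKM. With the endothelial covariate, which nearly follows the Tom HF-SC group, their interaction was 1.0 to 2.0, and none was called. The source of their RNA was not tested. Ctla2a and Ctla2b (4.54 and 3.66) are near-identical paralogs whose reads can be shared, so their split is uncertain. Both calls were lost without mouse 815 (limma adjusted p = 0.0154 and 0.0239) and with the endothelial covariate (0.71 and 0.91). Cyp1a1, a monooxygenase induced by the aryl hydrocarbon receptor, was called higher in HF-SCs and fell in b-KCs short of a call, from 0.298, 0.0613 and 0.297 FPKM to 3.18, 9.77 and 3.23 FPKM in HF-SCs and from 9.15, 3.72 and 1.7 FPKM to 0.288, 0.464 and 0.0771 FPKM in b-KCs (interaction 4.24 ± 0.58 SE, limma adjusted p = 1.76e-04).

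In another group of genes the positive interaction came from lower levels in Tom b-KCs. The 35 outside genes called lower in b-KCs alone had a median mean level of 18.4 FPKM in control and 2.18 FPKM in Tom b-KCs, and 2.82 and 2.70 FPKM in control and Tom HF-SCs. Agpat4, an acyltransferase of phospholipid synthesis, was at 56.4, 38.5 and 28.8 FPKM in control and 1.26, 1.75 and 3.7 FPKM in Tom b-KCs, and at 5.39, 8.1 and 6.23 FPKM in control and 7.38, 6.87 and 3.69 FPKM in Tom HF-SCs (interaction 3.58 ± 0.41 SE, limma adjusted p = 4.61e-05). Krt77, a keratin of the interfollicular epidermis, was called lower in both, from 221, 149 and 161 FPKM to 1.04, 0.767 and 1.65 FPKM in b-KCs and from 7.77, 12.9 and 14.5 FPKM to 0.246, 0.974 and 0.632 FPKM in HF-SCs. Its interaction of 3.41 ± 0.68 SE (limma adjusted p = 0.00267) was not called without mouse 810, 815, 825 or 828, with adjusted p from 0.0116 to 0.0486. In all, the Krt77 call was lost in 6 of the 14 alternatives, with limma adjusted p up to 0.118. Not of this group is Ptgs1, the cyclooxygenase COX-1, which was not called lower in b-KCs and changed in both compartments. It fell in b-KCs from 104, 97.5 and 83.6 FPKM to 34.0, 50.6 and 51.2 FPKM. In HF-SCs it rose from 10.9, 14 and 9.22 FPKM to 46.9, 48.4 and 32.5 FPKM (interaction 2.89 ± 0.32 SE, limma adjusted p = 3.11e-05). The Ptgs1 call was lost in 1 of the 14 alternatives, at 1.79 (limma adjusted p = 0.0137). Soat1, which esterifies cholesterol, fell in b-KCs from 22.2, 17.8 and 14.8 FPKM to 2.65, 2.97 and 0.908 FPKM and was at 1.35 to 2.58 FPKM in HF-SCs (interaction 2.95 ± 0.71 SE, limma adjusted p = 0.00961, and 0.0257 to 0.0579 without mouse 810, 814, 815, 825 or 828). The Soat1 call was lost in 8 of the 14 alternatives, with limma adjusted p up to 0.354.

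The 29 negative interactions included genes of control HF-SCs that were low in Tom HF-SCs and already low in b-KCs. Cck, which encodes the peptide hormone cholecystokinin, was at 27.2, 21.2 and 27.0 FPKM in control and 0.437, 1.43 and 1.4 FPKM in Tom HF-SCs, at 0.125 to 0.425 FPKM in control b-KCs and listed at 0 in the 3 Tom b-KC libraries (interaction -3.31 ± 0.25 SE, limma adjusted p = 1.54e-06). Grem1, a secreted BMP antagonist, was at 99.8, 93.2 and 86.6 FPKM in control and 8.15, 9.61 and 10.6 FPKM in Tom HF-SCs, and at most 0.578 FPKM in b-KCs. Its interaction was -2.72 ± 0.23 SE (limma adjusted p = 4.95e-06), and -1.43 with a pseudocount of 0.1 (limma adjusted p = 0.0429), since the ratio of Tom to control means was 0.101 in HF-SCs and 0.109 in b-KCs. Chat (choline acetyltransferase, -2.65), Myl9 (a myosin regulatory light chain, -2.41), Pid1 (-2.35) and 6330403K07Rik (-2.47) were likewise called lower in Tom HF-SCs and at or below 2.42 FPKM in the b-KC libraries. Each of these 4 genes, like Grem1, lost its call with a pseudocount of 0.1, and 6330403K07Rik lost it in 7 of 14 alternatives, among them the endothelial covariate (-0.23, limma adjusted p = 0.752) and each fit without 1 mouse other than 817.

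Other negative interactions came with a rise in b-KCs. Alox8, an 8-lipoxygenase of arachidonic acid, was at 0.75, 0.904 and 1.23 FPKM in control and 49.0, 50.9 and 32.0 FPKM in Tom b-KCs, and at 4.08, 6.26 and 7.42 FPKM in control and 16, 17.8 and 25.8 FPKM in Tom HF-SCs, so that it rose in both and the compartments changed order (interaction -2.90 ± 0.36 SE, limma adjusted p = 7.88e-05). The Alox8 call was lost in 1 of the 14 alternatives (limma adjusted p = 0.0115). Hpgd, the enzyme that inactivates prostaglandins, fell in HF-SCs from 136, 78.9 and 150.5 FPKM to 57.6, 53.2 and 34.4 FPKM and rose in b-KCs from 33.7, 31.0 and 35.8 FPKM to 83.6, 82.2 and 91.1 FPKM. Its interaction of -2.62 ± 0.40 SE (limma adjusted p = 3.81e-04) had the opposite sign to that of Ptgs1, also of the prostaglandin list, and was called under all 14 alternatives. Ednra, the endothelin A receptor, fell in HF-SCs from 52.4, 38.5 and 47.3 FPKM to 11, 13.4 and 21.8 FPKM and rose in b-KCs from 2.92, 2.47 and 2.27 FPKM to 16.3, 13.6 and 4.7 FPKM (interaction -3.23 ± 0.57 SE, limma adjusted p = 0.00115). H2-DMb1 (a chaperone of MHC class II loading, -2.72), the matrix protein Fbln1 (-2.69) and Smpdl3a (an acid phosphodiesterase, -2.32) rose in b-KCs and did not pass in HF-SCs. Rnf152, Trabd2b and Fam167a had interactions of -2.51, -2.47 and -2.44. The Ednra, Fbln1, Trabd2b, Fam167a and Smpdl3a calls were each lost without mouse 815, with adjusted p from 0.0115 to 0.0282. The Ednra call was also lost without mouse 814 or 828 (limma adjusted p = 0.0143 and 0.0115), that of Fam167a without mouse 814 (-1.99, limma adjusted p = 0.0145) and that of Smpdl3a without mouse 810, 825 or 828 (limma adjusted p from 0.0109 to 0.0171). With the endothelial covariate the calls of Ednra (-2.77), Fbln1 (-2.24), Trabd2b (-1.17) and Fam167a (-1.01) were lost, with limma adjusted p from 0.0324 to 0.228. The H2-DMb1 call was lost without mouse 814 (limma adjusted p = 0.0146) and that of Rnf152 with the covariate (-2.22, limma adjusted p = 0.0171).

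**Figure D4:**
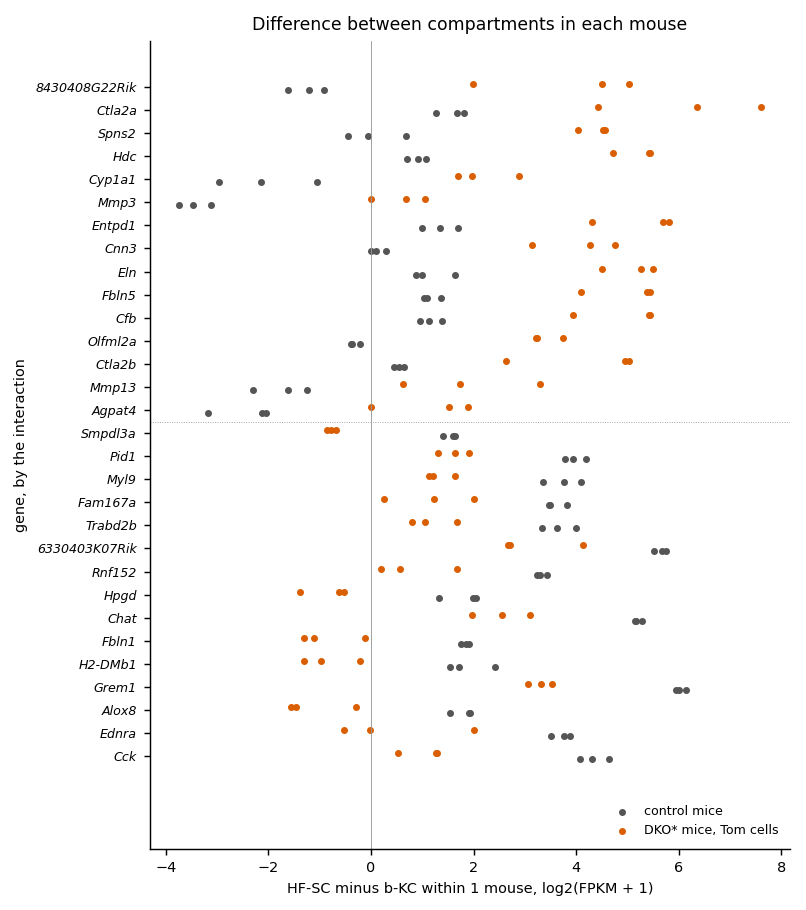
Difference between HF-SCs and b-KCs of the same mouse on the log2(FPKM + 1) scale (x axis) for the 15 genes with the largest positive and the 15 with the largest negative interaction (y axis), with 3 control mice in grey and the Tom cells of 3 DKO* mice in orange. The grey and orange points do not overlap in any of the 30 genes, which was a condition of their choice, and mouse 817 gave the lowest orange point of Ctla2a, at 4.42.

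On the log2 scale, mitotic genes rose more in HF-SCs than in b-KCs. All 20 genes of the list had a positive interaction, 17 of them at an adjusted p under 0.01 (5.93% of all genes), with a median of 1.60, and 0 reached the interaction of 2 needed for a call. In HF-SCs 18 of the 20 genes were called higher, against 3.61% of all genes, with a list median of 2.81. In b-KCs 0 were called, against 1.25%, while 17 rose, against 15.4%, with a median of 1.23. Mki67, the Ki-67 proliferation marker, was at 1.77, 2.8 and 2.55 FPKM in control and 15.1, 13.2 and 23.1 FPKM in Tom HF-SCs, and at 12.3, 13.4 and 13.3 FPKM in control and 18.2, 16.8 and 25.8 FPKM in Tom b-KCs (interaction 1.82 ± 0.27 SE, limma adjusted p = 3.08e-04). The summed list was 57.4 to 73.2 FPKM in control and 602 to 690 FPKM in Tom HF-SCs, and 423 to 437 FPKM in control and 1117 to 1234 FPKM in Tom b-KCs, so that Tom HF-SCs stayed below Tom b-KCs. The count of 17 fell to 5 without mouse 815 and 10 without mouse 825, and to 3 with the endothelial covariate, with which the median was 1.52. Of 16 DNA replication genes, 0 passed by limma and 4 had an unadjusted p under 0.05, as had 3692 of all 12751 genes, with a median interaction of 0.28, and Mcm5 rose in both compartments by 2.23 and 1.55.

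The lists of compartment identity, differentiation and signalling genes are given by how many members passed the adjusted p of the interaction, against 5.93% of all genes with a positive and 2.12% with a negative sign. Of 22 bulge genes, 15 fell in Tom HF-SCs, against 13.9% of all genes, and the median difference was -1.27 there and -1.10 in b-KCs, and 1 passed the test of the interaction, the WNT inhibitor Sfrp1, at 104, 138 and 138 FPKM in control and 46.6, 42.0 and 65.5 FPKM in Tom HF-SCs and 13.4 to 23.3 FPKM in b-KCs (interaction -1.44 ± 0.29 SE, limma adjusted p = 0.00303). Lgr5, a stem cell receptor of the WNT pathway, fell in both (interaction -0.69 ± 0.41 SE, limma adjusted p = 0.285). Of 12 interfollicular basal genes, 2 passed, both positive: Ly6a, the Sca-1 antigen of interfollicular cells, which endothelial cells also carry, rose from 63.7, 44.1 and 36.6 FPKM to 882, 691 and 248 FPKM in HF-SCs and from 354, 239 and 240.0 FPKM to 718, 788 and 626 FPKM in b-KCs, and Ly6d fell in b-KCs and rose in HF-SCs with an interaction of 1.92. The Ly6a interaction of 2.11 ± 0.50 SE (limma adjusted p = 0.00962) was 0.14 with the endothelial covariate and was not called without any single mouse other than 817. Of 19 suprabasal genes, 2 passed, the transcription factor Ovol1 at 1.88 and the transglutaminase Tgm3 at 1.33, both positive. Of 14 stress keratin and wound genes, the serpin Serpinb2 and Krt77 passed with a positive sign, and Krt75, a follicle keratin, with a negative one (-1.85). Of 9 EGFR ligand and receptor genes, 2 passed, the ligands Epgn and Hbegf, at 1.54 and 1.32. In the WNT and BMP list of 18 tested genes, Wnt5a passed with a positive sign (1.35) besides Grem1 with a negative one. Of 10 VEGF and angiogenic ligand genes, 3 passed, all positive, namely Adm, Pdgfb and Vegfc at 1.62, 1.30 and 1.52, of 17 sebaceous and lipid genes 2 passed, Soat1 and Elovl6, and of 11 interferon-stimulated genes 1 passed, Stat2.

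**Figure D5:**
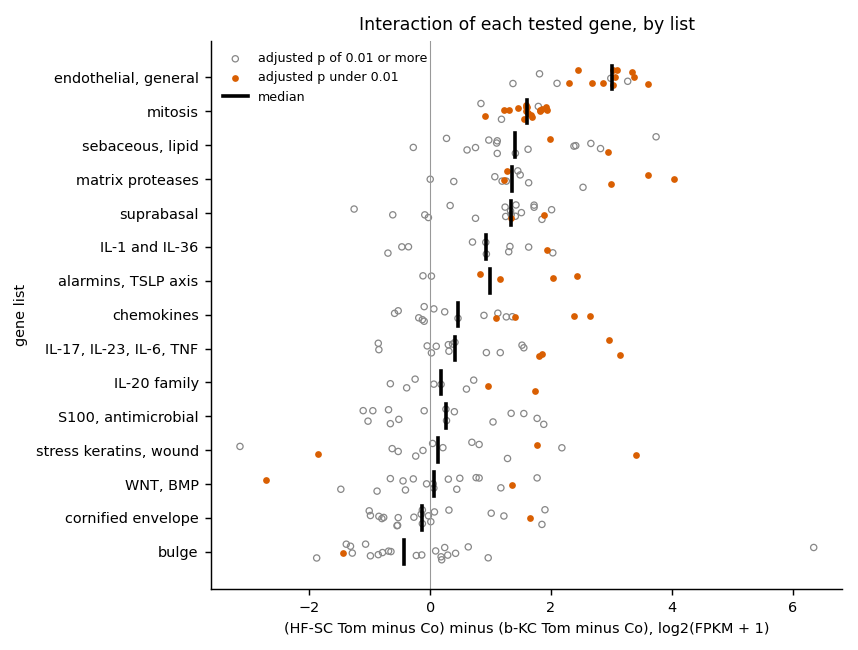
Interaction on the log2(FPKM + 1) scale (x axis) of each tested gene of 15 gene lists (y axis), with orange points for a limma adjusted p under 0.01, open grey points for the rest and a black bar at the median of each list. The general endothelial and mitosis lists lie wholly to the right of 0, while the S100, cornified envelope and bulge lists straddle it, and the point beyond 6 in the bulge list is Krt15, which is listed at 0 in a control library.

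Tom cells were also set against the GFP cells of the same mice, a difference of means that takes no Co value, though the Co libraries enter the shared spread behind its p, and 172 to 174 genes were called without 1 control mouse. For this contrast the difference between HF-SCs and b-KCs was called in 205 genes (1.61%), all of them with Tom HF-SCs on the higher side, and 52 of these belong to the endothelial lists. On the other side 0 genes were called by limma, and 445 genes had an unadjusted p under 0.05 with that sign. The one-sided count did not hold in each alternative, with 250 genes on the Tom HF-SC side and 3 on the other with the mouse as a fixed block, and 358 and 15 without mouse 817. The contrast shares its Tom libraries with the interaction described above, so the values are given side by side. Tslp, with -0.94 ± 0.35 SE here (limma adjusted p = 0.239), and Mmp13, with -2.09 (limma adjusted p = 0.147), did not pass, while Hdc was at 4.41 (limma adjusted p = 5.79e-08), Sele at 6.56 (limma adjusted p = 9.83e-06) and Il6st at 2.16 (limma adjusted p = 0.00572). Il19, at -0.37 (limma adjusted p = 0.833), did not pass in either contrast.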

How the data were processed

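RNA-seq was measured in sorted HF-SCs and b-KCs of 3 control and 3 DKO* mice, in 18 libraries. The authors deposited FPKM values for 23951 genes, made from 51-base single-end reads of non-directional libraries with TopHat2 2.0.10 (Bowtie 1.0.0, SAMtools 0.1.1.9, up to 2 mismatches and 20 multihits) and Cufflinks 2.2.1 on NCBI37/mm9, after FastQC 0.11.0. The SAMtools version is given as in the sample labels and is written differently in the study's methods. Without strand, reads of overlapping and antisense genes cannot be told apart, and FPKM can list an abundant gene at 0 where an estimate failed, which was found in 10 entries. Groups followed the sample titles. A gene entered the fit if 3 or more libraries reached 1 FPKM (12751 genes). Values were fitted on log2(FPKM + 1) with limma 3.58.1 in R 4.3.3, over 6 groups of 18 libraries with 1 shared spread, with Benjamini-Hochberg adjustment of p over all of these genes. On this scale a difference understates the change of low genes. Calls needed an adjusted p under 0.01 and an absolute log2 difference of at least 2. The fit was tested on simulated data. Python 3.11.15 made the tables (numpy 2.4.6, pandas 2.3.3) and the plots (matplotlib 3.10.9).

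The text names the 15 largest positive and 15 largest negative called interactions outside lists of other cell types, the 8 largest within the endothelial lists, Jun, Junb, Tslp and Il19, and members of lists where they are described, the called ones and some others. Named genes had to have within-mouse differences that do not overlap and no failed 0. The members and lists were chosen with earlier results of these data known. Both compartments of a mouse came from the same animal, and their deviations from the group means correlated with r of 0.204 to 0.404 in the 6 mice, so fits with the mouse as a random or fixed replicate block were made beside the unblocked one. The 3 mice of a group are separate animals. Alternatives were another pseudocount, no filter, other thresholds, the 12 libraries alone, rescaled libraries, failed zeros as missing, an endothelial covariate and leaving out each mouse. The depth implied by low values rests on steps that put 77.0% to 81.3% of them within 0.1 of a whole read, and no count test was run.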

Additional observations from a re-analysis of the deposited data

Results flagged for a closer look

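Each of the 39 genes below had a difference between Tom and control cells that differed between HF-SCs and b-KCs in the limma test of the interaction itself (adjusted p under 0.01 and at least 2 in size), and the value in parentheses is that interaction on the log2(FPKM + 1) scale. Outside the lists of other cell types, the positive values were 8430408G22Rik (5.09), Ctla2a (4.54), Spns2 (4.31), Hdc (4.30), Cyp1a1 (4.24), Mmp3 (4.03), Cnn3 (3.92), Eln (3.92), Entpd1 (3.92), Fbln5 (3.81), Cfb (3.78), Olfml2a (3.72), Ctla2b (3.66), Mmp13 (3.60) and Agpat4 (3.58). The negative values were Cck (-3.31), Ednra (-3.23), Alox8 (-2.90), H2-DMb1 (-2.72), Grem1 (-2.72), Fbln1 (-2.69), Chat (-2.65), Hpgd (-2.62), Rnf152 (-2.51), Trabd2b (-2.47), 6330403K07Rik (-2.47), Fam167a (-2.44), Myl9 (-2.41), Pid1 (-2.35) and Smpdl3a (-2.32). Within the endothelial lists they were Tm4sf1 (5.27), Vcam1 (4.30), Selp (3.81), Car4 (3.73), Aqp1 (3.72), Ackr1 (3.69), Sele (3.68) and Eng (3.60). Tslp had 2.03.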

How the results depend on the processing

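The 252 called interactions became 380 with a pseudocount of 0.1 and 874 at an absolute log2 difference of at least 1, and those outside the lists of other cell types went from 204 to 344 and 812. Leaving out 1 mouse gave 119 to 434 calls, with 143 without mouse 814, 119 without 815 and 434 without 817, and outside the lists 96 to 365, with 118, 96 and 365 for the same mice. Of the 252 genes, 132, 111 and 247 were also called in these 3 fits. Endothelial-list calls fell from 47 to 25 without 814 and 22 without 815. HF-SC calls were 979 with the pseudocount of 0.1, 1906 at the lower fold and 330 with the endothelial covariate, and b-KC calls 755 and 1873 under the first 2 of these. Calls in the contrast of Tom with GFP were 312 at the lower fold (310 higher in Tom HF-SCs and 2 lower), 11 with the covariate (4 and 7) and 52 to 373 without 1 mouse (52 without 814, 74 without 815, 373 without 817).

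With the endothelial covariate 256 genes were called, 165 with a positive and 91 with a negative interaction, and 38 of the 252 genes were among them, with 3 in the endothelial lists. The covariate is made of 16 endothelial-list genes and nearly follows the Tom HF-SC group. Calls lost under it therefore do not measure how firm they are. Tslp kept its direction throughout, at 1.76 to 2.20 without 1 mouse, and lost its call without mouse 814 or 828 and with the covariate (2.29, limma adjusted p = 0.0193). Il19 turned to 0.60 with the covariate (limma adjusted p = 0.553) and was -0.59 to -0.09 without 1 mouse, never past the threshold, and Aqp1 turned to -0.13. The bulge median, -0.44, was 0.15 with the covariate and 0.01 with the pseudocount of 0.1, and the S100 and cornified envelope medians, 0.26 and -0.13, were -2.38 and -2.25 with the covariate. The cause was not tested.

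With the mouse as a random replicate block 303 genes were called, among them all 252, and 262 with a fixed replicate block, among them 231, and the pairing left Tslp at 2.03 (limma adjusted p = 3.98e-04 and 0.00136). Of the 39 called genes named by rule, all 39 stayed called under both blocks, 30 with the pseudocount of 0.1 and 8 with the covariate, and Cxcl1 lost its call under the fixed block. Of 546 alternative values of these 39 genes, 460 kept direction and call, 85 lost the call and 1 changed sign. Depth limits genes near 0.114 to 0.182 FPKM, the worth of 3 reads on 1 kb, where zeros cannot be told from low levels.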
